A study of Mus musculus with 12 samples.

Results

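The globins and the erythroid genes Alas2, Klf1, Epor, Gata1 and Slc4a1 were followed in cells sorted from the gonads of mouse embryos. The members are 9 genes, Hbb-y, Hbb-bh1, Hba-x, Hba-a1, Alas2, Klf1, Epor, Gata1 and Slc4a1, and every probe set (the group of short probes that reads a transcript on the array) annotated to 1 of them alone was taken. That gave 15 of the 45037 probe sets tested and 9 of the 18193 genes represented. A further 4 probe sets name several globins at once and are described apart, because their signal cannot be assigned to 1 gene, and 3 probe sets name another globin alone. The samples were GFP-positive cells of embryos that carried pSF1-eGFP, a green fluorescent protein reporter of Sf1 (Nr5a1), collected by fluorescence-activated cell sorting. Females and males were taken at 10.5 and at 11.5 days post coitum (dpc), which gives 4 groups of 3 arrays, and all carried the same reporter. The labels name no untreated or reporter-negative sample, strain, or number of embryos per array, and do not say whether the 3 arrays of a group came from separate embryos or pools. The p-values therefore rest only on array-to-array spread within these groups, and that spread may be technical. In bulk RNA, fewer cells of a type and less RNA per cell cannot be told apart.

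Red cells of the early embryo form in the yolk sac and enter the circulation while still nucleated, and these primitive cells fill the blood of the embryo before red cells made in the fetal liver join them. Haemoglobin pairs alpha-like chains, encoded by Hba-x (zeta) and by the adult genes Hba-a1 and Hba-a2, with beta-like chains, encoded by the embryonic genes Hbb-bh1 and Hbb-y and by the adult Hbb genes. Primitive red cells shift as they mature from Hba-x to Hba-a1 and Hba-a2, and from Hbb-bh1 to Hbb-y. Gata1 and Klf1 are the transcription factors that switch on globin and heme genes, Epor is the erythropoietin receptor, Alas2 makes the first step of heme synthesis in red cells, and Slc4a1 (band 3) is their anion exchanger. Gata1 is also made by Sertoli cells of the testis after birth, so it is not exclusive to blood.

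Promoters of the globins and of Alas2 are shown so that the embryonic and adult globin genes and a heme gene of the same cells can be compared. RefSeq (GRCm38.p6) held a promoter for 7 of the 9 members; Hbb-bh1 and Slc4a1 were not in the table. Each sequence is the 250 bases before the gene's start, 5′ to 3′ on the gene's strand, with capitals on 4 short motifs searched on both strands. These are CACCC (the core bound by Klf1-type factors), GATAA (the core bound by Gata factors), CCAAT (a box of many promoters) and ATAAA (the core of a TATA box). Motifs can overlap, so 1 run of capitals can hold more than 1. The windows lie at chr7:103853208-103853457 (minus strand) for Hbb-y, chr11:32276350-32276599 (plus strand) for Hba-x, chr11:32283422-32283671 (plus strand) for Hba-a1 and chrX:150547167-150547416 (plus strand) for Alas2.
Hbb-y: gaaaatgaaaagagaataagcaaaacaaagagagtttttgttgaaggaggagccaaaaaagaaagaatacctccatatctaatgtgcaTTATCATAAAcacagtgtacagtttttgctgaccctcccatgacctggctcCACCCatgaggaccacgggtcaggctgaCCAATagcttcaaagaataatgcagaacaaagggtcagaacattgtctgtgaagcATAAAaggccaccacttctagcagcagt
Hba-x: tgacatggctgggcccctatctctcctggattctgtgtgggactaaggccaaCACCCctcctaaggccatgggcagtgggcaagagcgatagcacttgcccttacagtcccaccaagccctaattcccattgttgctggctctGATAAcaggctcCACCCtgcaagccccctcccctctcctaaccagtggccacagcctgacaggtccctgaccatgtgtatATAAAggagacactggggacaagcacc
Hba-a1: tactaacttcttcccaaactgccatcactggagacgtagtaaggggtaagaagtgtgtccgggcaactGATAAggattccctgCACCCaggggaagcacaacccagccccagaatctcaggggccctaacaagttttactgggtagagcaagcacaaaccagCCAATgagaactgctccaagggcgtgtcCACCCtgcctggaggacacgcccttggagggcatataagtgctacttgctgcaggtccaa
Alas2: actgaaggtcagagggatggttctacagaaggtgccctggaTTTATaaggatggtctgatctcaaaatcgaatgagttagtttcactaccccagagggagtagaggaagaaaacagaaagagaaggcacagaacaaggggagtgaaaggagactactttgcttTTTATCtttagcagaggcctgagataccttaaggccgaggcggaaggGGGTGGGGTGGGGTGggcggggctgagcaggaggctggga

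All 7 members with a window held CACCC, against 52.0% of the 32851 windows of the same length in the table. GATAA lay in 6 of 7, all but Gata1, against 22.6% of windows. CCAAT lay in 3 of 7 (Hbb-y, Hba-a1 and Klf1) against 33.8%, and ATAAA in 3 of 7 (Hbb-y, Hba-x and Alas2) against 37.3%. The nearest ATAAA began 28 bases before the start in Hbb-y and 27 in Hba-x, on the gene's strand. In Alas2 the matches were on the opposite strand, at 209 and 87 bases. The count of ATAAA is therefore not a count of TATA boxes. In Hba-x a GATAA began 107 bases before the start and a CACCC 95 bases before it, and in Hbb-y a CACCC began 111 and a CCAAT 83 bases before the start. Alas2 held 3 CACCC motifs on the opposite strand within 40 bases of its start. A match is a description of the sequence, not a binding site.

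Values are RMA intensities (background-corrected, quantile-normalised brightness of a probe set) on a linear scale, and changes are on the log2(intensity + 1) scale with their standard error (SE). Tests were made with limma across all 45037 probe sets, and a change was called at a Benjamini-Hochberg adjusted p below 0.05. The level of 1 probe set cannot be set against that of another, since probes differ in brightness. Arrays of a group correlated with r of at least 0.998 across probe sets. The sex labels held: Xist ranged from 5884 to 12443 on female and from 7.69 to 9.97 on male arrays. The Y-linked gene Eif2s3y was at 7.45 to 12.5 in females at 10.5 dpc and at 60.4 to 68.4 in females at 11.5 dpc, against 1563 to 2449 in males. Nr5a1, the gene behind the reporter, was present on all arrays, at 373 to 769. It averaged 378 (females) and 625 (males) at 10.5 dpc and 549 and 748 at 11.5 dpc, so it was higher in males at both ages. The ratio of the actin probe sets at the 3 prime and 5 prime ends, a sign of RNA length, averaged 5.32 (females) and 9.90 (males) at 10.5 dpc and 9.97 and 7.59 at 11.5 dpc. The same ratio for Gapdh averaged 2.70 (females) and 4.65 (males) at 10.5 dpc and 3.88 and 4.19 at 11.5 dpc, so it was higher in males at both ages, where the globins were lower, while the actin ratio was higher in males at 10.5 dpc and lower at 11.5 dpc. The part of these ratios in the results was not tested.

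The embryonic globins separated all 4 groups. At both ages they were lower in males than in females, and in both sexes they rose from 10.5 to 11.5 dpc. Of the 15 member probe sets, 9 were lower in males at 10.5 dpc and none was higher (median log2 change -1.02, against 0.02 over all probe sets). Over all probe sets 16.3% were lower and 17.9% higher in males at that age. At 11.5 dpc 10 were lower in males and none higher, against 16.7% lower and 17.7% higher overall (median -0.36, against -0.03). With age 10 rose in females and none fell, against 21.0% rising and 20.8% falling (median 0.52, against -0.01). In males 10 rose and 2 fell, against 20.2% and 26.5% (median 1.22, against -0.05). All 7 probe sets of Hbb-y, Hbb-bh1 and Hba-x were among those called in each of the 4 comparisons. Probe sets of 1 gene, and globins of 1 cell, are not independent, so these counts describe the members.

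**Figure D1:**
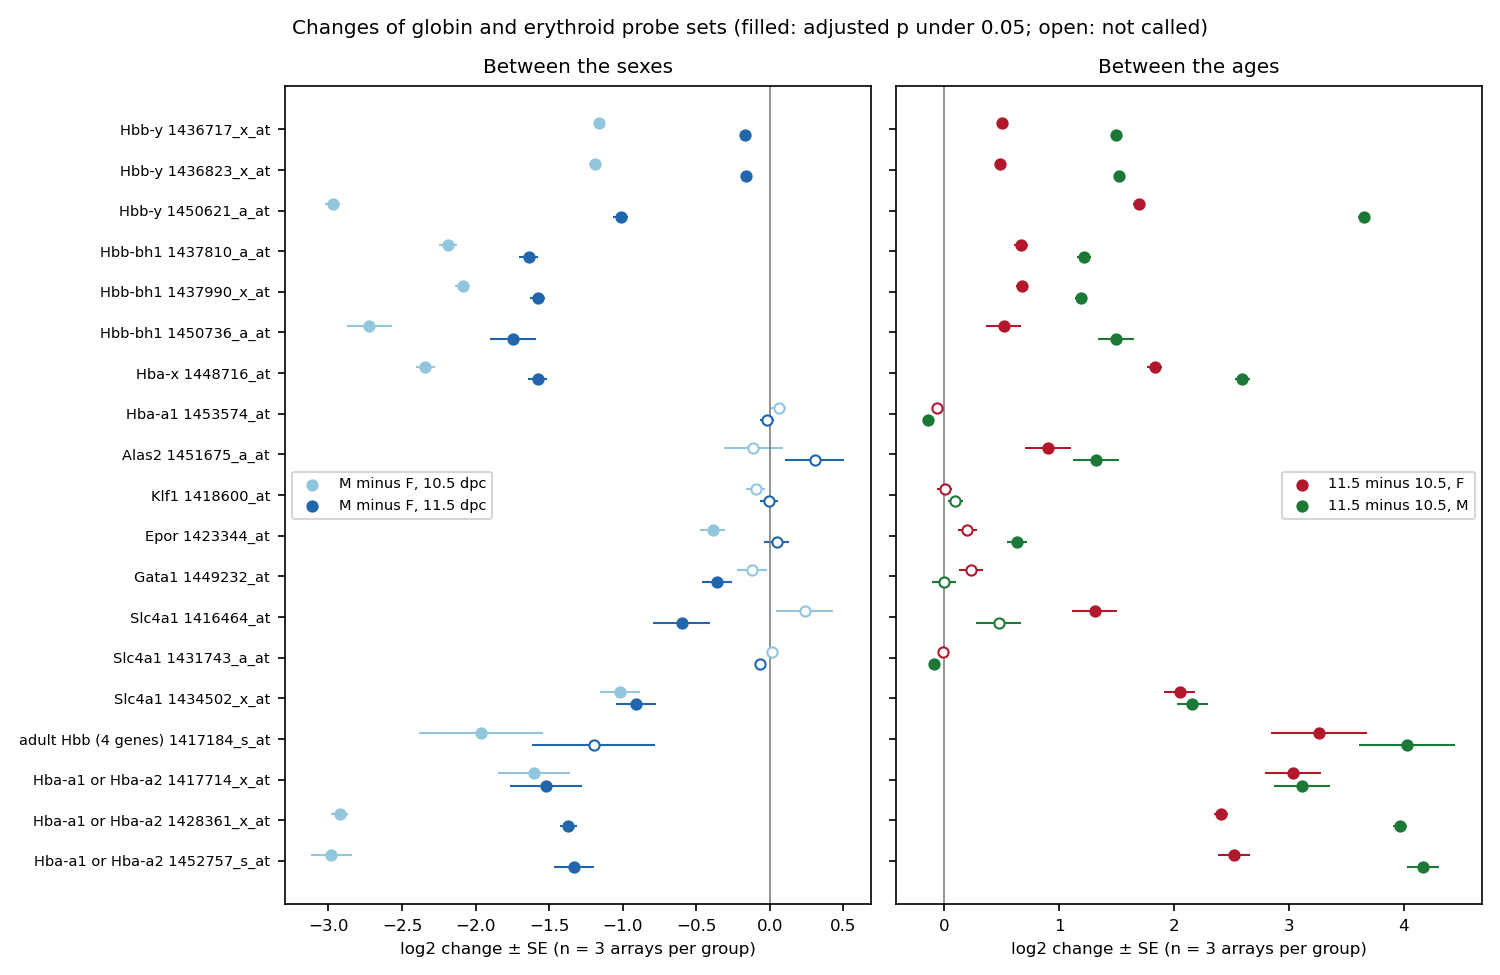
Log2 change ± SE of each member probe set and of the probe sets naming several globins, between the sexes (left) and between the ages (right), from 3 arrays per group; filled points were called and open points were not. The embryonic and adult globin points lie below 0 on the left and above 0 on the right, while Klf1 and Hba-a1 1453574_at stay near 0.

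Hbb-y (probe set 1450621_a_at), an embryonic beta-like chain, had the largest change of the member probe sets. Its intensity was 2291, 2301 and 2202 in females and 312, 269 and 284 in males at 10.5 dpc. At 11.5 dpc it was 7168, 7322 and 7535 in females and 3532, 3783 and 3597 in males. No 2 groups overlapped, and the order from low to high was males at 10.5 dpc, females at 10.5 dpc, males at 11.5 dpc and females at 11.5 dpc. Males stood 7.85-fold below females at 10.5 dpc, a log2 change of -2.97 ± 0.052 (adjusted p = 4.6e-10), and 2.02-fold below at 11.5 dpc, a log2 change of -1.01 ± 0.052 (adjusted p = 2.5e-07). The rise with age was 3.24-fold in females and 12.6-fold in males.

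The other 2 Hbb-y probe sets, both of the x type that may also bind related transcripts, gave the same order with smaller changes. 1436717_x_at averaged 33794 (females) and 15139 (males) at 10.5 dpc, and 48030.0 and 42769 at 11.5 dpc, above the 99th percentile of its arrays. Its sex difference was -1.16 ± 0.035 at 10.5 dpc and -0.17 ± 0.035 at 11.5 dpc, and that of 1436823_x_at was -1.19 ± 0.039 and -0.16 ± 0.039. The size of the Hbb-y sex difference at 11.5 dpc ran from -1.01 to -0.16 between probe sets of the gene, all called. Whether brightness or cross-binding makes the probe sets differ was not tested.

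Hbb-bh1, the embryonic beta-like chain that is the earlier of the pair, kept its sex difference at 11.5 dpc. Probe set 1437810_a_at read 3552, 3290.0 and 3257 in females and 757, 793 and 671 in males at 10.5 dpc. At 11.5 dpc it read 5527, 5437 and 5097 in females and 1681, 1736 and 1732 in males. The groups did not overlap, and their order differed from that of Hbb-y, since females at 10.5 dpc lay above males at 11.5 dpc for all 3 Hbb-bh1 probe sets. Males were 4.55-fold lower at 10.5 dpc (log2 change -2.19 ± 0.062, adjusted p = 5.4e-09) and 3.12-fold lower at 11.5 dpc (log2 change -1.64 ± 0.062, adjusted p = 4.1e-08). The 3 probe sets ranged from -2.72 to -2.09 at 10.5 dpc and from -1.75 to -1.58 at 11.5 dpc. With age 1437810_a_at rose by 0.67 ± 0.062 in females and by 1.22 ± 0.062 in males. The female rise of 1450736_a_at, 0.52 ± 0.15 (adjusted p = 0.02), was not called without female replicate 3 at 10.5 dpc (0.43, adjusted p = 0.078). The same held without female replicate 1 (0.48, adjusted p = 0.062) or replicate 2 (0.52, adjusted p = 0.0501) at 11.5 dpc.

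Hba-x, the embryonic zeta chain and the alpha-like partner of both, has 1 probe set, 1448716_at. Its intensity was 789, 686 and 698 in females and 154, 135 and 137 in males at 10.5 dpc, and it was 2627, 2626 and 2477 in females and 842, 894 and 852 in males at 11.5 dpc. Females at 10.5 dpc and males at 11.5 dpc were nearest to each other, with no overlap. Males were 5.07-fold below females at 10.5 dpc (log2 change -2.34 ± 0.065, adjusted p = 4.9e-09) and 2.98-fold below at 11.5 dpc (log2 change -1.58 ± 0.065, adjusted p = 6.6e-08). The log2 rise with age was 1.83 ± 0.065 in females and 2.60 ± 0.065 in males.

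**Figure D2:**
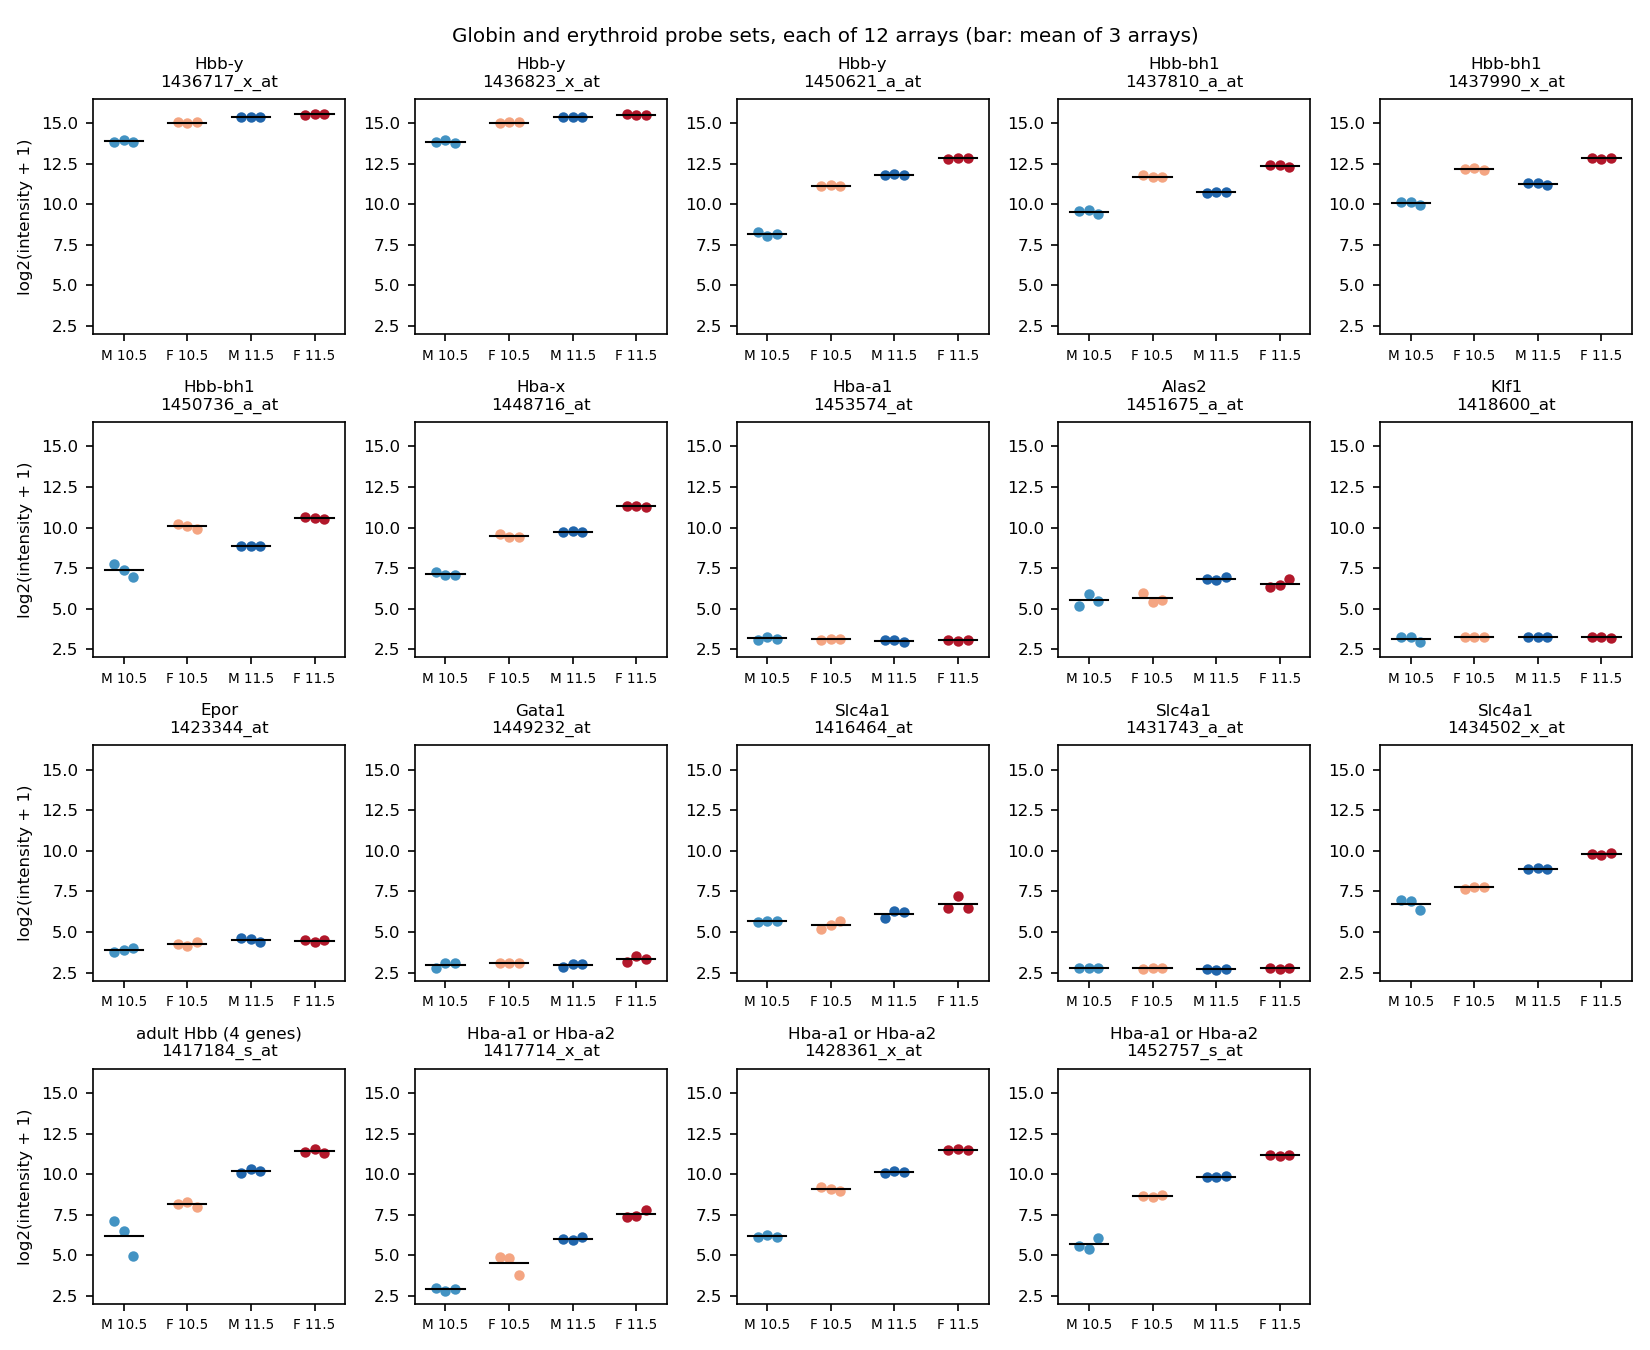
Log2(intensity + 1) of each of 12 arrays (points; bars are means of 3 arrays) for the 15 member probe sets and the 4 probe sets naming several globins, in males (M) and females (F) at 10.5 and 11.5 dpc. Hbb-y, Hba-x, Slc4a1 1434502_x_at and the adult-type globins climb from M 10.5 through F 10.5 and M 11.5 to F 11.5, while Hbb-bh1 is lower in M 11.5 than in F 10.5.

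The adult-type globins changed in the same directions. Probe set 1452757_s_at, which names Hba-a1 and Hba-a2, the adult alpha chains, read 399.7, 387 and 417 in females and 47.1, 40.0 and 66.1 in males at 10.5 dpc. At 11.5 dpc it read 2333, 2245 and 2344 in females and 896, 912 and 939 in males, with no overlap between groups. It was 7.89-fold lower in males at 10.5 dpc (log2 change -2.98 ± 0.14, adjusted p = 8.0e-08) and 2.52-fold lower at 11.5 dpc (log2 change -1.33 ± 0.14, adjusted p = 2.7e-05). It rose 5.74-fold with age in females and 18.0-fold in males. 1428361_x_at, which names the same pair, gave -2.92 ± 0.059, -1.37 ± 0.059, 2.41 ± 0.059 and 3.97 ± 0.059 for those 4 comparisons, all called. The dimmer 1417714_x_at gave -1.60 ± 0.24, -1.52 ± 0.24, 3.03 ± 0.24 and 3.12 ± 0.24, also called, from a male level of 6.91, 6.02 and 6.49 at 10.5 dpc that is near the lowest intensities.

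The only probe set annotated to Hba-a1 alone, 1453574_at, did not follow them. It stayed between 6.87 and 8.72 on all arrays, at the 19th to 24th percentile, with a called change of -0.14 ± 0.050 (adjusted p = 0.043) between the ages in males. That call was lost without any 1 of 9 arrays and with an added 16 in place of 1 (-0.05, adjusted p = 0.058). Probe set 1427219_at, annotated to Hba-a2 alone, averaged 102 (females) and 44.7 (males) at 10.5 dpc and 72.7 and 47.3 at 11.5 dpc. It was called lower in males at 10.5 dpc (-1.17 ± 0.19, adjusted p = 6.4e-04) and at 11.5 dpc (-0.61 ± 0.19, adjusted p = 0.03), while no change with age was called. The 2 kinds of adult alpha probe set disagreed on the change with age.

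Adult beta globin was read by 1417184_s_at, which names Hbb-bt, Hbb-bs, Hbb-b2 and Hbb-b1, the adult beta chains, whose names differ between mouse strains. Its intensity was 286, 316 and 248 in females and 138, 88.4 and 29.8 in males at 10.5 dpc, where the 3 male arrays spread more than 4-fold. It was 2649, 2952 and 2562 in females and 1079, 1289.9 and 1193 in males at 11.5 dpc. The groups did not overlap. It rose 9.61-fold with age in females (log2 change 3.26 ± 0.42, adjusted p = 7.6e-05) and 16.3-fold in males (log2 change 4.03 ± 0.42, adjusted p = 1.7e-05). Males were lower at 10.5 dpc, -1.96 ± 0.42 (adjusted p = 0.0037), while the difference of -1.20 ± 0.42 (adjusted p = 0.0503) at 11.5 dpc was not called. Without male replicate 3 at 10.5 dpc, whose spread enters the shared error, the latter was -1.20 with an adjusted p of 0.00026, and without male replicate 1 at that age the adjusted p was 0.015. The 2 probe sets of Hbb-b2 alone lay between 4.79 and 25.0 on all arrays.

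The rise with age was larger in males than in females for all 7 probe sets of the embryonic globins. The difference of the age changes was 1.96 ± 0.074 (adjusted p = 1.2e-07) for Hbb-y 1450621_a_at and 0.76 ± 0.092 (adjusted p = 1.4e-04) for Hba-x. It was 0.55 ± 0.087 (adjusted p = 8.8e-04) for Hbb-bh1 1437810_a_at. In terms of the sexes, the male deficit narrowed as a ratio over the day without closing. As a difference of mean intensities it widened for Hba-x, Hbb-y 1450621_a_at and all 3 Hbb-bh1 probe sets. That difference narrowed for the bright x-type probe sets of Hbb-y. Among all member probe sets 8 had a larger and 1 a smaller change in males, against 14.6% and 13.4% of all probe sets. The adult alpha probe set 1452757_s_at gave 1.65 ± 0.19 (adjusted p = 1.2e-04), while adult beta globin gave 0.77 ± 0.59 (adjusted p = 0.37) and was not called. The adult alpha probe set 1417714_x_at gave 0.08 ± 0.34 (adjusted p = 0.87) and was not called either. Its male arrays at 10.5 dpc were near the lowest intensities, so that its rise in males may be understated.

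Ratios between the globins differed between groups. The log2 ratio of 2 probe sets within an array was compared between groups by the exact two-sided permutation test, for 8 pairs and 4 comparisons. With 3 arrays against 3 the smallest p it allows is 0.10, or 0.128 after adjustment over the 32 tests, so none could pass 0.05. Adult alpha (1452757_s_at) relative to Hba-x went up with age by 0.69 in females and by 1.57 in males, with no overlap of the arrays (exact p = 0.10 for each). All 3 adult alpha probe sets gave that direction, from 0.58 to 1.20 in females and from 0.52 to 1.57 in males, where the low end is 1417714_x_at, which may be understated for the same reason. Hbb-bh1 relative to Hba-x changed with age by -1.16 in females and -1.38 in males, also without overlap (exact p = 0.10 for each), and all 3 Hbb-bh1 probe sets gave that direction. Adult beta relative to Hbb-bh1 went up with age for all 3 Hbb-bh1 probe sets, by 2.59 to 2.75 in females and 2.54 to 2.84 in males.

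The balance of the embryonic beta chains depended on the probe set. Hbb-bh1 (1437810_a_at) relative to Hbb-y (1450621_a_at) changed by -1.03 with age in females and by -2.44 in males, without overlap (exact p = 0.10 for each). In males all 9 pairings of the probe sets of these genes gave a fall, the smallest being -0.005. In females 3 of 9 pairings gave a fall and 6 a rise, from -1.18 to 0.19. Between the sexes at 11.5 dpc the ratio was lower in males in all 9 pairings, from -1.59 to -0.56, and at 10.5 dpc 3 pairings gave a higher and 6 a lower ratio in males. The pairings that turned used the bright x-type probe sets of Hbb-y.

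**Figure D3:**
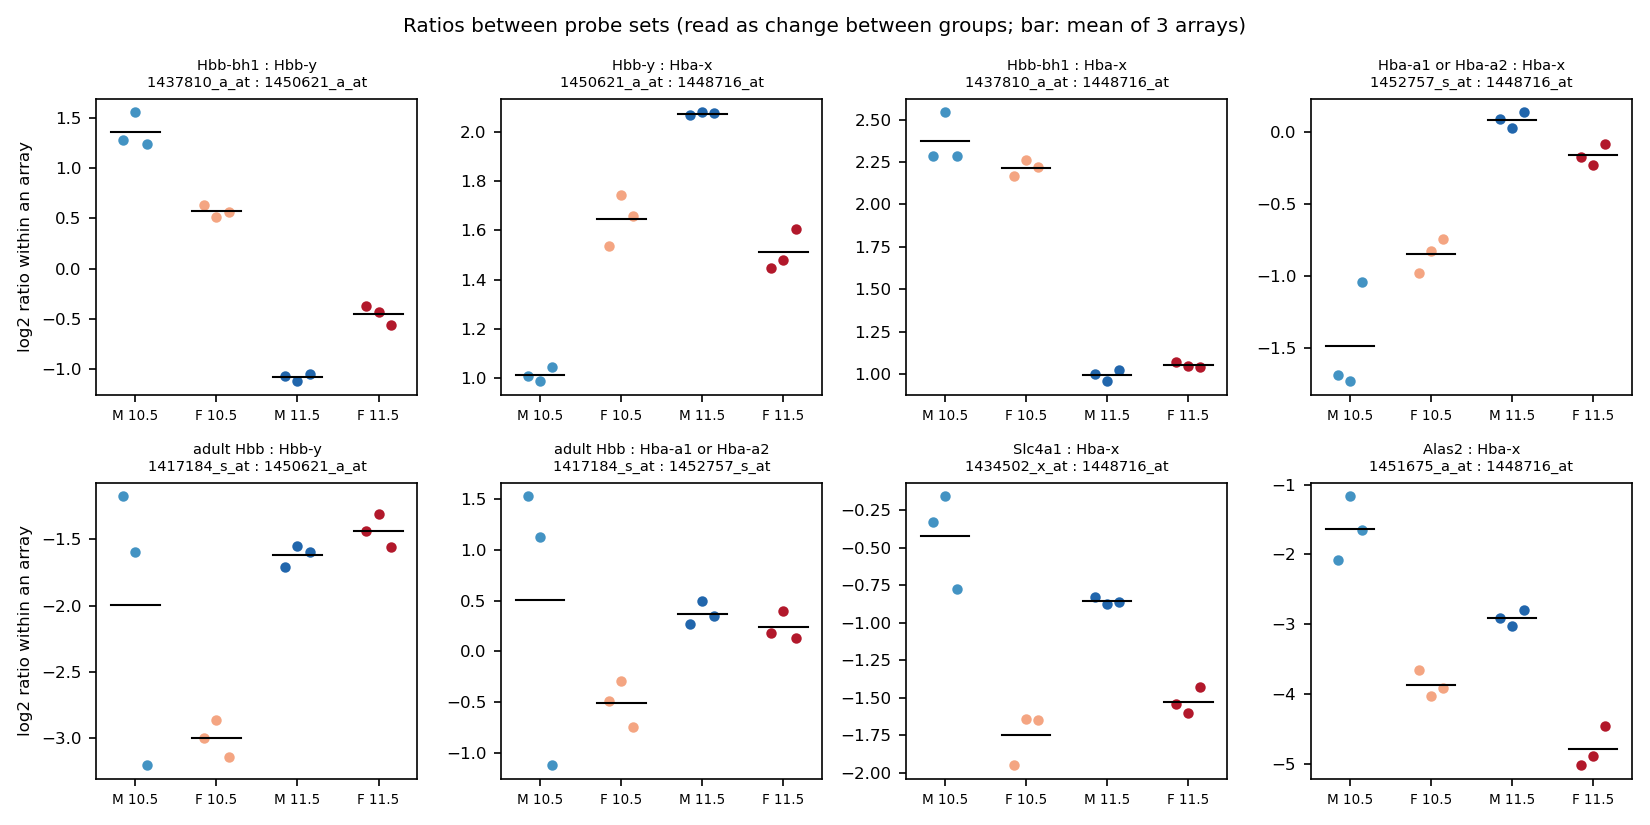
Log2 ratio between 2 probe sets within each array (points; bars are means of 3 arrays) for 8 pairs, by group; only differences between groups can be read, since probe sets differ in brightness. Hbb-bh1 relative to Hba-x is lower, and adult alpha relative to Hba-x higher, at 11.5 dpc in both sexes, and Alas2 relative to Hba-x is higher in males at both ages.

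Alas2, the red cell form of the heme-synthesis enzyme, rose with age and was not called different between the sexes. Probe set 1451675_a_at read 61.7, 41.1 and 45.4 in females and 35.7, 59.6 and 42.7 in males at 10.5 dpc, ranges that overlapped. At 11.5 dpc it read 79.8, 87.3 and 112 in females and 111, 109 and 122 in males, which overlapped too. The sex difference was -0.11 ± 0.20 (adjusted p = 0.77) at 10.5 dpc and 0.31 ± 0.20 (adjusted p = 0.29) at 11.5 dpc, and the rise with age was 0.90 ± 0.20 (adjusted p = 0.0036) in females and 1.32 ± 0.20 (adjusted p = 2.8e-04) in males. The ratio of Alas2 to Hba-x was larger in males than in females, by 2.23 on the log2 scale at 10.5 dpc and 1.88 a day later, without overlap (exact p = 0.10 for each). At 10.5 dpc the sex difference of Alas2, -0.11 ± 0.20, stood beside -2.34 ± 0.065 for Hba-x. Alas2 lay at the 48th to 55th percentile of the arrays at that age. Whether its sex difference was understated at that level was not tested.

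Slc4a1, the band 3 anion exchanger of the red cell membrane, has 3 probe sets that disagreed. 1434502_x_at, of the x type, read 204, 219 and 222 in females and 122, 121 and 79.5 in males at 10.5 dpc. At 11.5 dpc it read 900.3, 865 and 918 in females and 473, 487 and 468 in males, in the order of Hbb-y and without overlap. It was lower in males by a log2 change of -1.02 ± 0.13 (adjusted p = 1.4e-04) at 10.5 dpc and -0.91 ± 0.13 (adjusted p = 3.6e-04) at 11.5 dpc, and rose 4.15-fold in females and 4.47-fold in males.

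The second Slc4a1 probe set, 1416464_at, had female means of 42.3 ± 7.31 (SD, n = 3) at 10.5 dpc and 108 ± 33.8 at 11.5 dpc, and male means of 49.5 ± 1.06 and 69.7 ± 10.3. It rose in females, 1.31 ± 0.20 (adjusted p = 2.4e-04), and was not called for the rise in males (log2 change 0.47 ± 0.20, adjusted p = 0.071) or for sex at 10.5 dpc (log2 change 0.24 ± 0.20, adjusted p = 0.46). Its sex difference at 11.5 dpc, -0.60 ± 0.20 (adjusted p = 0.038), rested on female replicate 2, at 147, and was -0.36 without it (adjusted p = 0.089). That call was lost without any 1 of 7 arrays, with an adjusted p of up to 0.13, and the rise in males was called without female replicate 2 at 11.5 dpc (adjusted p = 0.015). The difference of its age changes, -0.84 ± 0.28 (adjusted p = 0.048), was lost without any 1 of 9 arrays, to an adjusted p of up to 0.11. The third, 1431743_a_at, stayed between 5.40 and 6.01, and its called change with age in males, -0.09 ± 0.031 (adjusted p = 0.041), was lost without any 1 of 7 arrays.

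The regulators Klf1 and Gata1 were near the lowest intensities in all groups. Klf1 (1418600_at) lay between 6.83 and 8.76 on the 12 arrays, at the 17th to 26th percentile, and no change was called. Gata1 (1449232_at) lay between 5.81 and 10.3, at the 13th to 30th percentile. It was lower in males at 11.5 dpc (log2 change -0.36 ± 0.10, adjusted p = 0.02), from 7.84, 10.3 and 9.31 in females against 6.24, 7.14 and 7.24 in males. Without female replicate 2 that was -0.28 (adjusted p = 0.074), without female replicate 3 -0.34 (adjusted p = 0.061) and without male replicate 1 -0.30 (adjusted p = 0.079). Its rise in females, 0.24 ± 0.10 (adjusted p = 0.1), was called without female replicate 1 at 11.5 dpc (0.33, adjusted p = 0.023) or male replicate 1 at 10.5 dpc (adjusted p = 0.047). RMA draws dim probe sets together, so a change at this level would be understated.

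Epor, the erythropoietin receptor, was dim but changed. Probe set 1423344_at read 18.2, 16.8 and 20.2 in females and 12.8, 13.9 and 14.8 in males at 10.5 dpc, without overlap. At 11.5 dpc it read 22.1, 19.7 and 22.0 and 23.3, 23.0 and 19.8, which overlapped. Males were lower at 10.5 dpc (log2 change -0.39 ± 0.085, adjusted p = 0.0045) and not called different at 11.5 dpc (log2 change 0.05 ± 0.085, adjusted p = 0.69), and it rose with age in males (log2 change 0.63 ± 0.085, adjusted p = 1.1e-04). The rise in females, 0.20 ± 0.085 (adjusted p = 0.089), was called without female replicate 3 at 10.5 dpc (0.27, adjusted p = 0.035). The difference of the age changes, 0.43 ± 0.12 (adjusted p = 0.021), was lost without male replicate 1 or replicate 2 at 11.5 dpc (adjusted p = 0.052 for each).

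The wider red cell genes moved in both directions. Over 5 lists of heme synthesis, iron and heme handling, erythroid transcription factors, red cell membrane and red cell enzymes, without the members, 66 of 75 genes had a probe set of their own. At 10.5 dpc 9 were higher and 16 lower in males, or 13.6% and 24.2%, near the 17.5% and 22.8% of all genes. At 11.5 dpc 13 were higher (19.7%) and 14 lower (21.2%), against 19.1% and 20.9% of all genes. In females 19 rose with age (28.8%) and 13 fell (19.7%), against 22.4% and 27.0% of all genes. In males 23 rose (34.8%) and 13 fell (19.7%), against 23.3% and 29.7%. With age, then, more rose and fewer fell than among all genes, and no test of that difference was made. The median change of the 66 genes was between -0.07 and 0.04 in the 4 comparisons.

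Some genes of these lists followed the globins and others ran against them. Blvrb, the biliverdin reductase abundant in red cells, averaged 111 (females) and 52.9 (males) at 10.5 dpc and 253 and 125 at 11.5 dpc, with a sex difference of -1.08 ± 0.15 and -1.01 ± 0.15 and an age change of 1.18 ± 0.15 in females and 1.26 ± 0.15 in males, all called. Car2, a carbonic anhydrase of red cells and other cells, averaged 199.5 (females) and 87.0 (males) at 10.5 dpc and 253 and 165 at 11.5 dpc. Mkrn1, on the list of red cell enzymes and chaperones, was lower in males at both ages (-0.90 ± 0.074 and -1.09 ± 0.074) and rose in both sexes (0.89 ± 0.074 in females and 0.69 ± 0.074 in males). Alad, the second enzyme of heme synthesis, which all cells use, rose by 0.93 ± 0.044 in females and 0.95 ± 0.044 in males. Tfrc, the transferrin receptor that brings iron into dividing cells and red cell precursors, ran the other way, at 4293 (females) and 5724 (males) at 10.5 dpc and 1941 and 2438 at 11.5 dpc. Hmox1, which breaks heme down, was lower in males at both ages and fell with age in both sexes (-1.06 ± 0.064 in females and -0.99 ± 0.064 in males). Bpgm, which makes the red cell regulator of oxygen release, was lower in males at 10.5 dpc (-1.43 ± 0.14) and fell with age in females (-1.17 ± 0.14).

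Levels within the red cell lists ran from the lowest intensities to well above the median probe set. All 4 group means were under 10 for 2 of 16 erythroid transcription factors, 4 of 16 membrane genes, 2 of 14 enzyme and chaperone genes and none of the 7 heme synthesis and 13 iron genes. The mean exceeded the median probe set for 11, 7, 8, 7 and 12 genes of those lists. The genes named next, like Tal1 and Gata2, were picked after their values were seen. Rhag, a red cell membrane channel, averaged 5.79 (females) and 5.88 (males) at 10.5 dpc and 6.59 and 5.68 at 11.5 dpc. Nfe2, a factor of the globin control region, averaged 5.02 (females) and 5.04 (males) at 10.5 dpc and 5.03 and 7.45 at 11.5 dpc, and was called higher in males at 11.5 dpc (adjusted p = 0.033) and rising in males (adjusted p = 0.027). Kel, which carries a blood group antigen, stayed under 7 in all group means and was called rising in females (adjusted p = 0.0036) and lower in males at 11.5 dpc (adjusted p = 0.026). Other genes of these lists were brighter: Gfi1b, a repressor of red cell and platelet precursors, averaged 73.0 (females) and 72.8 (males) at 10.5 dpc and 76.5 and 69.7 at 11.5 dpc, and Ank1, the ankyrin of the red cell skeleton, 106 (females) and 81.7 (males) at 10.5 dpc and 104 and 86.2 at 11.5 dpc. Among the partners of Gata1, Tal1 averaged 22.1 (females) and 21.6 (males) at 10.5 dpc and 31.8 and 28.4 at 11.5 dpc and rose with age in both sexes, and Gata2, which endothelium and early blood cells also use, rose by 0.78 ± 0.13 in females and 0.91 ± 0.13 in males. On the list of erythropoietin signalling 5 of 9 genes rose (55.6%) and 2 fell (22.2%) with age in females, and 4 rose (44.4%) and 2 fell (22.2%) in males, against the shares of all genes above.

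Markers of other cell types moved with the globins in some comparisons and not in others. Over all genes 17.5% were higher and 22.8% lower in males at 10.5 dpc, 19.1% and 20.9% at 11.5 dpc, 22.4% rose and 27.0% fell in females, and 23.3% rose and 29.7% fell in males. Of 15 endothelial markers 11 were lower in males at 10.5 dpc and none was higher (median -0.99), and their summed intensity was 2355 to 2449 in females and 1039 to 1159.9 in males. At 11.5 dpc 3 were higher and 1 lower in males, with sums of 2315 to 2372 in females and 2369 to 2479 in males, ranges that overlap at an age when the globins still differed by sex. Cldn5, a junction protein of vessels, averaged 222 (females) and 36.0 (males) at 10.5 dpc and 245 and 174 at 11.5 dpc. Pecam1 and Cdh5, which define endothelium and were picked after their values were seen, stayed at 4.64 to 8.55 in all group means. Of the 15 markers 4 had all group means under 10, while the mean of 9 exceeded the median probe set. With age 2 endothelial markers rose and 5 fell in females, while 9 rose and none fell in males.

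Neural and germ cell markers stood apart in females at 10.5 dpc. Of 11 neural and neural crest markers 9 were lower in males at 10.5 dpc and none higher (median -2.24), with sums of 13059 to 13086 in females and 2977 to 3093 in males. At 11.5 dpc the sums were 812 to 884 and 838 to 876, and 9 of the 11 fell with age in each sex while none rose. Of 12 germ cell markers 10 were lower in males at 10.5 dpc and none higher, with sums of 4165 to 4321 in females and 1254 to 1281 in males. At 11.5 dpc 6 were lower and 1 higher, with sums of 2852 to 2912 and 1913 to 1981. The part of cell mixture in the sex difference of the globins at 10.5 dpc was not tested.

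Markers of other blood cells ranged from the lowest intensities to above the middle of the arrays. The median probe set was exceeded by 4 of 16 macrophage, 3 of 11 megakaryocyte and platelet and 1 of 12 mast cell and granulocyte markers. Of 16 macrophage markers 5 were lower in males at 10.5 dpc (31.2%) and 4 at 11.5 dpc (25%) with none higher, while 7 fell (43.8%) and 1 rose with age in females and 4 fell (25%) and 1 rose in males. Their sums went from 733 to 795 to 644 to 671 in females and from 655 to 695 to 527 to 550.2 in males. The pan-leukocyte marker Ptprc averaged 14.5 (females) and 8.62 (males) at 10.5 dpc and 7.51 and 6.65 at 11.5 dpc. Of 11 megakaryocyte and platelet markers 2 were lower and 2 higher in males at 10.5 dpc (18.2% each), 2 lower (18.2%) and 1 higher at 11.5 dpc, and 4 rose with age in each sex (36.4%) while 1 fell in females and none in males. Pf4, a platelet chemokine, averaged 141 (females) and 64.1 (males) at 10.5 dpc and 194 and 128 at 11.5 dpc. Its means in females at 10.5 dpc (SD 9.40) and males at 11.5 dpc (SD 11.5) lay close, and that pair was not tested. Gp9 and Tubb1 stayed under 8 in all group means. Of 12 mast cell and granulocyte markers 2 were lower in males at 10.5 dpc (16.7%) and 3 at 11.5 dpc (25%), 2 rose and 2 fell with age in females and 2 fell in males (16.7%).

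Of 11 yolk sac endoderm and liver markers 2 were lower in males at 10.5 dpc (18.2%) and 2 higher at 11.5 dpc (18.2%), with 1 rising and 1 falling in females and 2 rising in males, all under the shares of all genes. One of them changed more than any member: Afp, the alpha-fetoprotein of yolk sac endoderm and fetal liver, which was picked after its values were seen. It averaged 19.3 (females) and 7.23 (males) at 10.5 dpc and 206 and 2749 at 11.5 dpc. Its age change was 3.42 ± 0.23 in females and 8.39 ± 0.23 in males, and males were lower at 10.5 dpc (-1.23 ± 0.23) and higher at 11.5 dpc (3.74 ± 0.23), all called. The summed intensity of the list was 322 to 377 in females and 249 to 276 in males at 10.5 dpc and 420.3 to 479 and 2916 to 3179 at 11.5 dpc. Both the globins and Afp rose with age, but at 11.5 dpc Afp was higher in males and the globins were lower. Its part in the globin changes was not tested.

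Of the markers fixed for gonadal somatic cells, the genital ridge factors Lhx9, Wt1, Emx2 and Gata4 were well measured, while Amh, Foxl2 and Hsd3b1 were near the lowest intensities. Of 16 gonadal somatic markers 7 were higher and 3 lower in males at 10.5 dpc and 5 higher and 9 lower at 11.5 dpc, while 6 rose and 7 fell with age in females and 5 rose and 8 fell in males. Their summed intensity was 19602 to 20013 in females and 23200.0 to 23761 in males at 10.5 dpc and 17279 to 17791 and 11222 to 11345 at 11.5 dpc. The sum was highest in males at 10.5 dpc, whose globins were lowest, and lowest in males at 11.5 dpc, whose globins were not the highest. Whether red cells carried through the sort, or RNA made in the sorted cells, gave the globin signal was not tested.

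**Figure D4:**
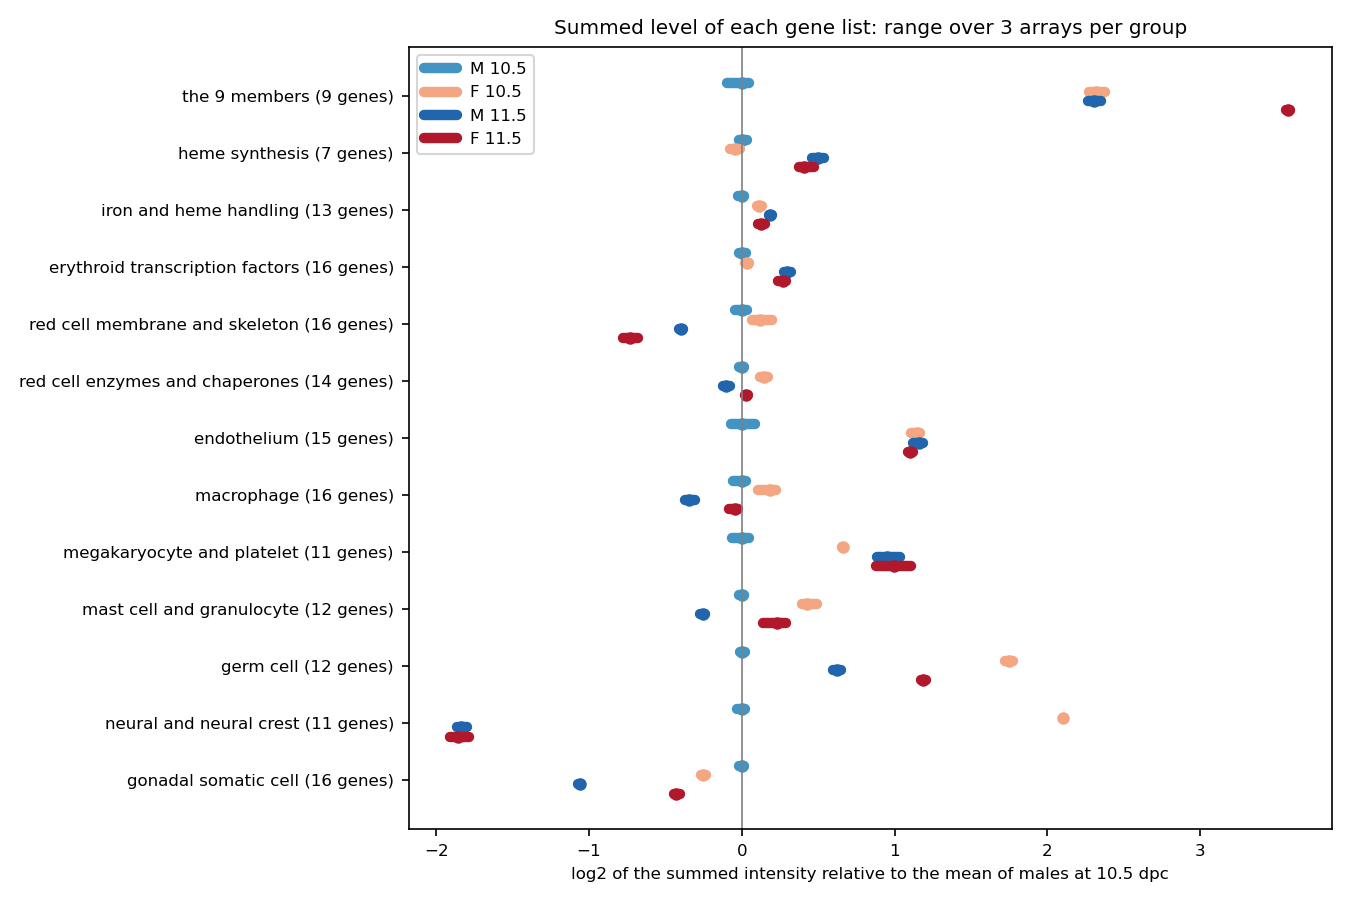
Summed intensity of each gene list, as log2 relative to the mean of males at 10.5 dpc; bars span the 3 arrays of a group and points are means, and bright genes weigh most in a sum. The members climb in females at 10.5 dpc and in both sexes at 11.5 dpc, the endothelial sums of all groups but males at 10.5 dpc lie together, and neural sums are highest in females at 10.5 dpc.

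Genes outside the lists had a pattern like that of the embryonic globins. Among 4629 genes whose group means spanned at least 1 on the log2 scale, the 10 most like the mean profile of Hbb-y, Hbb-bh1 and Hba-x over the 12 arrays had Pearson r from 0.9944 to 0.9975. They were Lgals1, Atp5g1, Timm10b, Ercc1, Atox1, Ndufa2, Rras, Psme1, Dynll2 and Romo1. None is on a red cell list, but only 15 of the 4629 genes compared were, with members and globins left out, so that says little. Lgals1, a galactose-binding lectin, averaged 16496 (females) and 8213 (males) at 10.5 dpc and 26550 and 17555 at 11.5 dpc. Atp5g1, a subunit of the mitochondrial ATP synthase, averaged 1898 and 815 at 10.5 dpc and 2887 and 1767 at 11.5 dpc.

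A high r was common: 358 of the 4629 genes, or 7.73%, reached 0.9. The 12 arrays form 4 tight groups, so r mostly reflects the order and spacing of 4 means. Of 15 red cell list genes among them, 3 reached 0.9, which were Car2 at 0.973, Blvrb at 0.967 and Mkrn1 at 0.951, and Tfrc lay at the other end with -0.87.

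**Figure D5:**
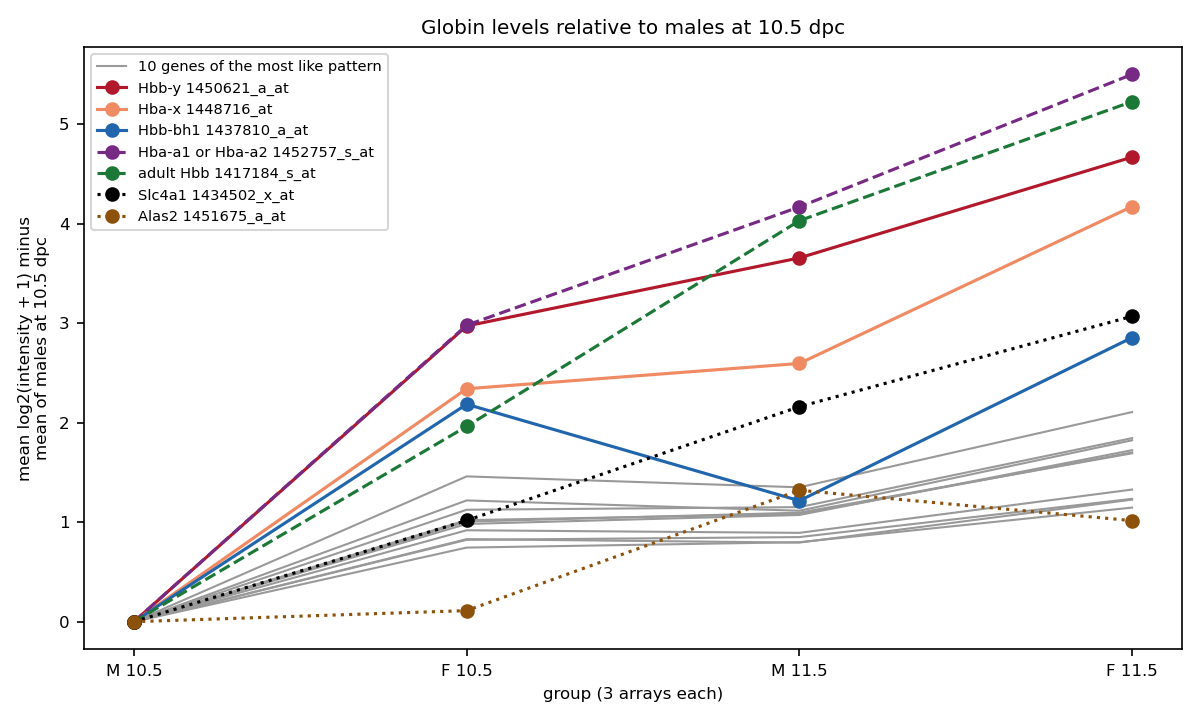
Mean log2(intensity + 1) of each group of 3 arrays minus the mean of males at 10.5 dpc, for selected globin and erythroid probe sets and for the 10 genes most alike in pattern (grey); lines only join points of a gene. The adult-type globins span the most, Hbb-bh1 dips in males at 11.5 dpc, and Alas2 lies at nearly the same mean in both sexes at 10.5 dpc.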

How the data were processed

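RNA of 12 samples was double amplified and labelled with biotin, per the labels, and each was read on 1 array. The authors deposited intensity values; the submitters' processing notes name RMA, with no version. RMA commonly ends in log2 values; the step to a linear scale is not described, and that scale was read from the range of the values. RMA includes quantile normalization, which would hide a shift common to most transcripts. The table held 45101 probe sets; 64 control probe sets were left out. Gene names came from an old platform annotation, with symbols updated through Entrez identifiers in RefSeq (GRCm38.p6), where 34741 matched. The sources used here do not give the annotation's build, so probe sets have no coordinates. Of the tested probe sets 34945 had 1 symbol, 932 several and 9160 none.

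Intensities were turned into log2(value + 1) and fitted with limma 3.58.1 in R 4.3.3, with 1 mean per group over all 12 arrays (8 residual and 1.89 prior degrees of freedom), 5 contrasts and Benjamini-Hochberg adjustment over 45037 probe sets. The limma fit was tested on simulated data with known changes, for the sex comparison at 10.5 dpc. Exact permutation tests were two-sided. A gene on a list was represented by its brightest probe set, cross-hybridising kinds only where there was no other, so Slc4a1 was counted by 1416464_at. All member probe sets are named; from other lists at most the 2 largest changes in each direction and the 2 brightest genes of a comparison are, except where said and except for defining cell type markers, which were picked after their values were seen. Members and lists were chosen with earlier results of these data known. Files gave no batch, slide or scan to test. Alternatives were another pseudocount, median centring, a minimum mean of 64, 2-group fits, trended moderation, a replicate block, and each array left out. Precision is limited by the number of arrays.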

Additional observations from a re-analysis of the deposited data

Results flagged for a closer look

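The change with age differed between the sexes, by a test of the difference itself (limma, male minus female change, log2 ± SE), for 9 member probe sets and 2 that name several globins. For Hbb-y it was 1.96 ± 0.074 (1450621_a_at), 1.03 ± 0.055 (1436823_x_at) and 0.99 ± 0.049 (1436717_x_at). For Hbb-bh1 it was 0.55 ± 0.087 (1437810_a_at), 0.51 ± 0.072 (1437990_x_at) and 0.98 ± 0.22 (1450736_a_at), and for Hba-x 0.76 ± 0.092. Of the adult alpha probe sets, 1428361_x_at gave 1.55 ± 0.084 and 1452757_s_at gave 1.65 ± 0.19. The dimmer 1417714_x_at gave 0.08 ± 0.34 and was not called. Epor gave 0.43 ± 0.12 and Slc4a1 1416464_at gave -0.84 ± 0.28, the only one with the larger rise in females, and both were lost in some fits that left out 1 array. Groups of 3 arrays were not tested for outlying arrays.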

How the results depend on the processing

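No count of member calls moved by more than 1.5 times and no member change reversed in any alternative: an added 16 in place of 1, array medians centred, dim probe sets left out, fits of 2 groups alone, trended robust moderation, a replicate block, or leaving out 1 array. Over all of these the member probe sets called numbered 8 to 9 between the sexes at 10.5 dpc, 8 to 10 at 11.5 dpc, 9 to 12 with age in females and 10 to 13 in males, and 7 to 9 for the difference of the age changes. Leaving out 1 array gave 9 to 9, 8 to 10, 9 to 11, 10 to 13 and 7 to 9. Single changes lost their call 49 times and gained one 17 times. With the replicate block the members called were 9 and 10 between the sexes at 10.5 and 11.5 dpc, 11 with age in each sex and 9 for the difference. Same-numbered deviations correlated between -0.141 and 0.0818 and differently numbered ones between -0.106 and 0.148, so no pairing by replicate number was seen. The labels do not say whether arrays of the same number share a litter or preparation, and these correlations cannot settle it. The block brought the rise of Gata1 in females (0.24, adjusted p = 0.028) and of Slc4a1 1416464_at in males (0.47, adjusted p = 0.047) past the threshold, and the sex difference of adult beta globin at 11.5 dpc (-1.20, adjusted p = 0.046). It took Hba-a1 1453574_at (adjusted p = 0.067) and Slc4a1 1431743_a_at (adjusted p = 0.057) in males out of the calls.

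Centring the array medians changed the split of all calls: 31.9% of calls were rises in females and 27.9% in males, against 50.3% and 43.3% without it. The probe sets that fell went from 9352 to 17721 in females and from 11939 to 22038 in males, which are the counts behind the shares of all probe sets beside the members. The median change over all probe sets was then -0.08 and -0.10. The number of arrays, and the pull of RMA on dim probe sets, limit what can be said of Klf1, Gata1 and Hba-a1 1453574_at.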
